A study of Mus musculus with 2 samples.

Results

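The interleukin-1 family and its receptors were followed here as 9 named genes of the 32287 features in 1 single-cell matrix of denervated mouse muscle. The genes were Il1a, Il1b, Il1rn, Il1r1, Il1r2, Il1rl1, Il1rap, Il18 and Il33, chosen by name with earlier results of these data known. All 9 were found in the matrix, and each held between 1523 and 80080 unique molecular identifiers (UMIs, 1 for each captured RNA molecule) in the cells analysed. Their levels were read across classes of cells that were gated by the UMIs of other, marker genes, none of which is a member.

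The single-cell library, labelled WT in a study that also has Sod1-/- animals, came from the S100GFPtg line, in which the S100B promoter drives green fluorescent protein (GFP), a reporter used for Schwann cells. Hind limb muscle, tibialis anterior with gastrocnemius, was digested 7 days after crush of the sciatic nerve at an age of 2 months, and live (PI-) cells that were GFP+ were sorted and sequenced as 1 library with 10x 3' tags. The series text speaks of a single crushed mouse and the study's methods of pooled male mice, so the number of animals is uncertain. Only the matrix of the GFP+ fraction was used, so no uninjured muscle, GFP- fraction or replicate stands beside these levels, no test was possible, and every interval given covers counting error only.

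Of 36400 barcodes, 8894 held at least 5000 UMIs, and 8701 of these passed the filters on genes and mitochondrial counts, with a median of 11624 UMIs and 3211 genes. These are called cells below. Of the 8701, 84 barcodes also occurred among those of the GFP- library. The gates placed 6042 cells in a myeloid-like and 1409 in a fibroblast-like lineage. The myeloid-like cells held 2157 Lyve1+ macrophage-like (Lyve1 Folr2 gate), 1569 MHCII+ macrophage-like (MHC class II and C1q), 465 Gpnmb+ macrophage-like (Gpnmb Fabp5), 339 Ly6c2+ monocyte-like (Ly6c2 Chil3), 240 Xcr1+ dendritic-like (Xcr1 Clec9a), 179 Cd209a+ dendritic-like (Cd209a Flt3), 16 Ccr7+ mature dendritic-like and 7 neutrophil-like cells. The fibroblast-like cells held 342 Pi16+ (Pi16 Dpp4), 235 Dkk2+ (Dkk2 Bmper Lsamp), 207 Smoc2+ (Smoc2 Cxcl14 Hsd11b1), 151 Gdf10+ (Gdf10 Inmt) and 31 Apod+ (Apod Tenm2 Col28a1) cells. Outside these lineages, 397 tenocyte-like, 57 smooth muscle or pericyte-like, 38 blood endothelial-like, 78 Schwann-like and 251 satellite cell or myoblast-like cells were found, so the reporter sort was mostly of other cells than Schwann cells, and Gfp itself was at 461 CPM (UMIs per 1000000 UMIs) in myeloid-like and 665 CPM in Schwann-like cells. In each of the 23 gated classes the 10 genes with the highest fold over other cells held more markers of the class itself than of any other list. The cells were gated on these same markers, so this could not serve as a check of the gates. Muscle fibre-like (25), erythroid-like (23), T and NK-like (14), lymphatic endothelial-like (7) and mast-like (1) cells were too few to be ranked, and 290 cells with markers of more than 1 lineage and 69 with none were left out. In a sort for GFP, class sizes are not those of the muscle. A class name stands for its gate.

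Interleukin-1 is made in 2 agonist forms, IL-1α (Il1a) and IL-1β (Il1b), which share the receptor IL-1R1 (Il1r1) and its co-receptor IL-1RAP (Il1rap). The receptor antagonist (Il1rn) occupies IL-1R1 without signalling, and IL-1R2 (Il1r2) is a decoy that binds the ligand and lacks a signalling domain. IL-33 (Il33) is a nuclear alarmin released by damaged stromal and barrier cells and is read by ST2 (Il1rl1) with the same co-receptor. IL-18 (Il18), like IL-1β, is made as a precursor that caspase-1 cleaves, and it has receptor chains of its own. In injured muscle and nerve, IL-1β is a classical product of incoming monocytes and macrophages, so levels of RNA below are levels of a precursor message and not of active cytokine.

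On the mouse genome (GRCm38.p6 in RefSeq, matched by symbol), Il1a (chr2:129299609-129310186) and Il1b (chr2:129364569-129371164) are neighbours on the minus strand, and Il1rn lies on the same chromosome (chr2:24336860-24351491). Il1r2 (chr1:40084692-40125230), Il1r1 (chr1:40222480-40316201) and Il1rl1 (chr1:40404864-40465418) lie in a row on chromosome 1. Il18 is at chr9:50554700-50581841, Il1rap at chr16:26581509-26730128 and Il33 at chr19:29925113-29960718. RefSeq promoters were given for 14 transcription starts of the 9 genes. The 150 bases before the start are shown for both agonists, which were highest in myeloid-like classes, and for the first start of their receptor Il1r1, whose level was highest in fibroblast-like cells. Capitals mark the motifs found, which from left to right are a PU.1 core, a TATA box and an AP-1 match in Il1a, a TATA box in Il1b and a C/EBP match, at -133, in Il1r1.

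Il1a, chr2:129309973-129310122, minus strand: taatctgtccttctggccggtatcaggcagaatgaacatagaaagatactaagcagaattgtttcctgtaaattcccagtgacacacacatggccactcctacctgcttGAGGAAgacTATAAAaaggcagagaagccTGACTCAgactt
Il1b, chr2:129371140-129371289, minus strand: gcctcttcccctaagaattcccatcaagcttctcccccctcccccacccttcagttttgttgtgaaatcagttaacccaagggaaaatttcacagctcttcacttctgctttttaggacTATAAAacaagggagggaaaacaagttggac
Il1r1, chr1:40224930-40225079, plus strand: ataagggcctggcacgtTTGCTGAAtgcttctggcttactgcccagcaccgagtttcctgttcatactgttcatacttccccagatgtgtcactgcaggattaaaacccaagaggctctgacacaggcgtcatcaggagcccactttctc

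Both agonist promoters held a TATA box (TATAAA), with its first base at -32 in Il1a and at -31 in Il1b, and the start of Il1r1 held none. Over the 250 bases before the start, on both strands, TATAAA was found at 5 of the 14 member starts, against 12.4% of 32851 mouse promoters. The second start of Il33 was the other one with a TATA box near the start, at -29. The remaining 2 matches, in Il18 and at the first start of Il33, lay at -175 and -203. Of the other motifs searched, the PU.1 core GAGGAA was found at 1 member start (that of Il1a; 23.3% of all promoters), TTGCNNAA of C/EBP at 3 (9.56%), TGANTCA of AP-1 at 2 (6.75%), AGATAA of GATA factors at 2 (9.99%), both of Il1rl1, and the NF-kB consensus at 1 (3.90%), the second start of Il1r1. A match is a run of letters and not a measured binding site.

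The 9 genes differed in their leading classes. The agonists and the antagonist were highest in myeloid-like classes, Il1r1 and Il33 in fibroblast-like classes, Il1r2 and Il1rl1 in a dendritic-like subset, Il18 in a fibroblast-like subset and Il1rap in Schwann-like cells, outside both lineages. Levels are given as CPM, the summed UMIs of the gene per 1000000 UMIs of the class, and are compared between classes and not between genes.

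**Figure D1:**
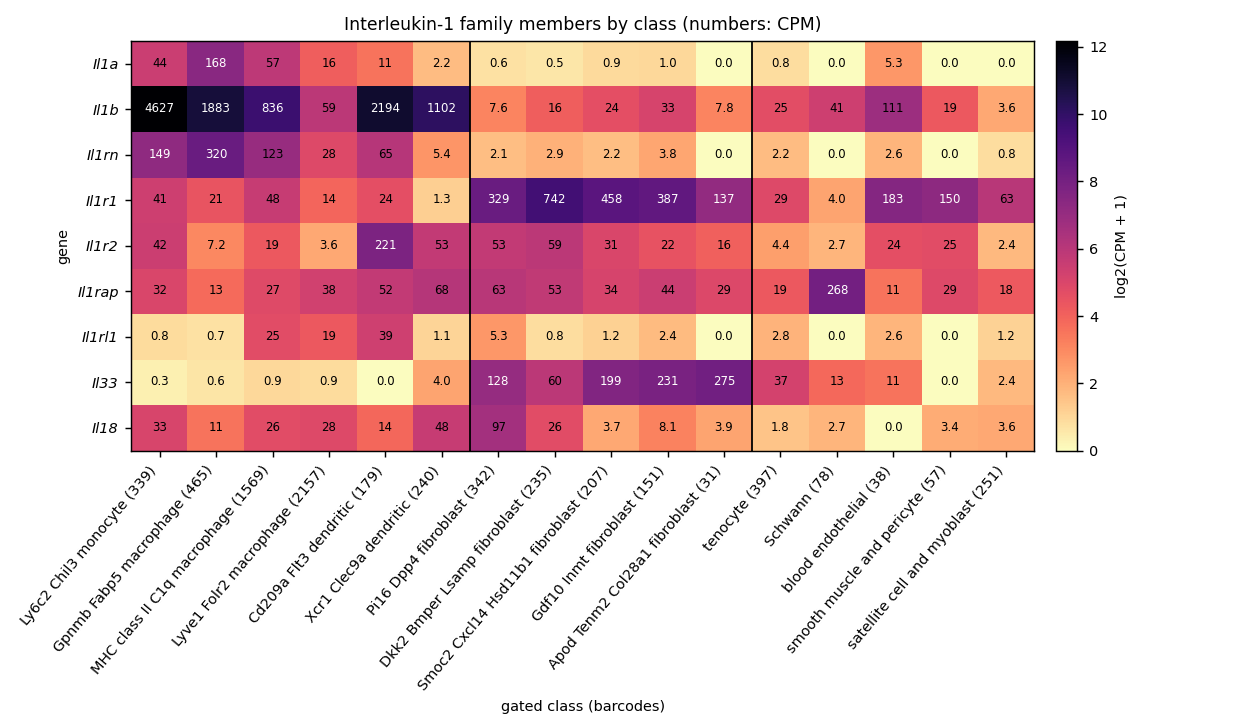
Level of each member (rows) in the 16 gated classes with at least 30 cells (columns, number of cells in brackets); colour is log2(CPM + 1) and the printed numbers are CPM. The left block holds myeloid-like, the middle block fibroblast-like and the right block other classes. Il1b reaches 4627 CPM in Ly6c2+ monocyte-like cells and Il33 275 CPM in Apod+ fibroblast-like cells (56 of 141 UMIs in 1 cell), while Il1rap is highest in Schwann-like cells at 268 CPM.

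Il1b was highest in monocyte-like cells, followed by dendritic-like and Gpnmb+ macrophage-like cells. Its level was 4627 CPM (95% interval 4558 to 4697) in Ly6c2+ monocyte-like cells, 2194 CPM (2136 to 2254) in Cd209a+ dendritic-like cells, 1883 CPM (1854 to 1912) in Gpnmb+ macrophage-like cells, 1102 CPM (1072 to 1133) in Xcr1+ dendritic-like cells and 836 CPM (822 to 850) in MHCII+ macrophage-like cells. Lyve1+ macrophage-like cells, the largest subset, held 59.5 CPM (56.6 to 62.5). Each of these neighbours in the order differed beyond counting error. Of the subsets too small to be ranked, the 7 neutrophil-like cells held 136 Il1b UMIs (1650.2 CPM) and the 16 mature dendritic-like cells 161 (795 CPM).

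The share of cells with at least 1 Il1b UMI, after every cell was thinned to 5000 UMIs, was 89.7% of Ly6c2+ monocyte-like cells (exact binomial interval 85.9 to 92.7%), 76.5% of Cd209a+ and 70.0% of Xcr1+ dendritic-like cells, 67.5% of Gpnmb+, 40.8% of MHCII+ and 9.23% of Lyve1+ macrophage-like cells. The order was that of the levels except that Xcr1+ dendritic-like cells (63.8 to 75.7%) stood beside Gpnmb+ macrophage-like cells (63.1 to 71.8%) with overlapping intervals. Without thinning the shares were 93.5%, 79.9%, 78.3%, 72.3%, 45.7% and 14.6%. In satellite cell or myoblast-like cells, which are not known as a source of IL-1β, the share was 0.797% (2.39% without thinning). Median depths were 10510 UMIs in monocyte-like and 9067 in satellite cell or myoblast-like cells. Within a subset the gene was uneven. The median Ly6c2+ monocyte-like cell held 3297 CPM, the median MHCII+ macrophage-like cell held none, and the top 5% of MHCII+ macrophage-like cells carried 52.5% of that subset's Il1b UMIs.

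In the ranked classes outside the myeloid-like lineage, Il1b lay between 3.59 CPM in satellite cell or myoblast-like cells and 111 CPM in blood endothelial-like cells. Because myeloid marker RNA was present in every class, the Il1b level was set beside the level that the class's own myeloid marker UMIs would bring at the ratio of pooled myeloid-like cells. The 5 fibroblast-like subsets held 7.58 to 33.4 CPM, each below its own such level (9.75 to 41.0 CPM). Tenocyte-like cells held 25.0 CPM against 25.3, with 49 of their 125 UMIs in 1 cell, and Schwann-like cells 41.1 CPM against 33.6, with 27 of their 31 UMIs in 1 cell. Blood endothelial-like cells held 111 CPM against 45.8, with 29 of their 42 UMIs in 1 cell. Among the ranked non-myeloid classes, only these last 2 held more Il1b than their myeloid marker UMIs would bring at the pooled ratio. That ratio differed widely between subsets. Ly6c2+ monocyte-like cells held 4627 CPM of Il1b beside 30438 CPM of myeloid markers, and Lyve1+ macrophage-like cells 59.5 beside 17885 CPM. The order of observed and reference levels thus depends on the subset taken as source, which was not tested.

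Il1a was led by Gpnmb+ macrophage-like cells with 168 CPM (159 to 177). MHCII+ macrophage-like cells followed with 57.4 CPM (53.9 to 61.2), Ly6c2+ monocyte-like cells with 44.1 CPM (37.6 to 51.4) and Lyve1+ macrophage-like cells with 16.0 CPM (14.6 to 17.6). In dendritic-like cells the gene was scarce, with 10.8 CPM in Cd209a+ cells, where 10 of the 26 UMIs were in 1 cell, and 2.23 CPM (1.07 to 4.10) in Xcr1+ cells. The thinned share of cells with a UMI was 34.0% of Gpnmb+ macrophage-like, 8.55% of Ly6c2+ monocyte-like and 1.67% of Xcr1+ dendritic-like cells (49.2%, 14.5% and 4.17% unthinned), compared with 0.781% of fibroblast-like cells (0.994% unthinned), whose median depth was 15276 UMIs. The agonists therefore had different leading subsets. As a part of the UMIs of both agonists, Il1a made up 21.2% in Lyve1+, 8.18% in Gpnmb+ and 6.43% in MHCII+ macrophage-like cells, but 0.944% in Ly6c2+ monocyte-like (0.805 to 1.10%), 0.488% in Cd209a+ and 0.202% in Xcr1+ dendritic-like cells. No Il1a UMI was found in satellite cell or myoblast-like, Schwann-like, smooth muscle or pericyte-like or Apod+ fibroblast-like cells, which allows up to 1.20, 3.98, 5.06 and 5.85 CPM at 3 counts.

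Il1rn, the antagonist, was highest in the class that led Il1a. Gpnmb+ macrophage-like cells held 319.9 CPM (308 to 332), Ly6c2+ monocyte-like cells 149 CPM (137 to 162), MHCII+ macrophage-like cells 123 CPM (118 to 129), Cd209a+ dendritic-like cells 65.4 CPM (55.6 to 76.4) and Lyve1+ macrophage-like cells 28.2 CPM (26.2 to 30.2). Xcr1+ dendritic-like cells held only 24 UMIs in 240 cells (5.36 CPM, 3.43 to 7.97) beside their 4939 Il1b UMIs. As a part of the UMIs of both genes, Il1rn made up 32.1% in Lyve1+ macrophage-like cells (30.3 to 34.1%), 14.5% in Gpnmb+ and 12.9% in MHCII+ macrophage-like cells, 3.12% in Ly6c2+ monocyte-like cells (2.86 to 3.38%), 2.89% in Cd209a+ and 0.484% in Xcr1+ dendritic-like cells (0.310 to 0.719%). The subsets with much Il1b were thus spread over a wide range in this part, and the intervals of Ly6c2+ monocyte-like and Cd209a+ dendritic-like cells overlapped. Relative to Il1a, Il1rn kept a narrower range, from 63.7% of the UMIs of both genes in Lyve1+ macrophage-like to 85.9% in Cd209a+ dendritic-like cells.

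Il1rn and Il1a were more frequent in the macrophage-like cells that held Il1b. In MHCII+ macrophage-like cells thinned to 5000 UMIs, Il1rn was present in 35.5% of the 640 cells with Il1b and in 13.1% of the others, and in Gpnmb+ macrophage-like cells in 63.7% of the 314 cells with Il1b and 37.7% of the others. For Il1a the shares were 19.1% and 5.27% in MHCII+ and 41.7% and 17.9% in Gpnmb+ macrophage-like cells. Of the 339 Ly6c2+ monocyte-like cells 304 held Il1b, and Il1rn was present in 32.6% of these and in 5.71% of the few others, with both genes in 29.2% of all cells against 26.7% if unrelated. For Il1a, both genes were in 8.26% of these cells against 7.67% if unrelated. In Xcr1+ dendritic-like cells, of which 4 held Il1a, the shares ran the other way (0.595% with Il1b and 4.17% without). In Cd209a+ dendritic-like cells Il1rn was about as frequent with Il1b (13.9% of 137) as without (11.9%). Cells of a gate may differ in state, so these shares describe the gate and not a link between the genes.

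**Figure D2:**
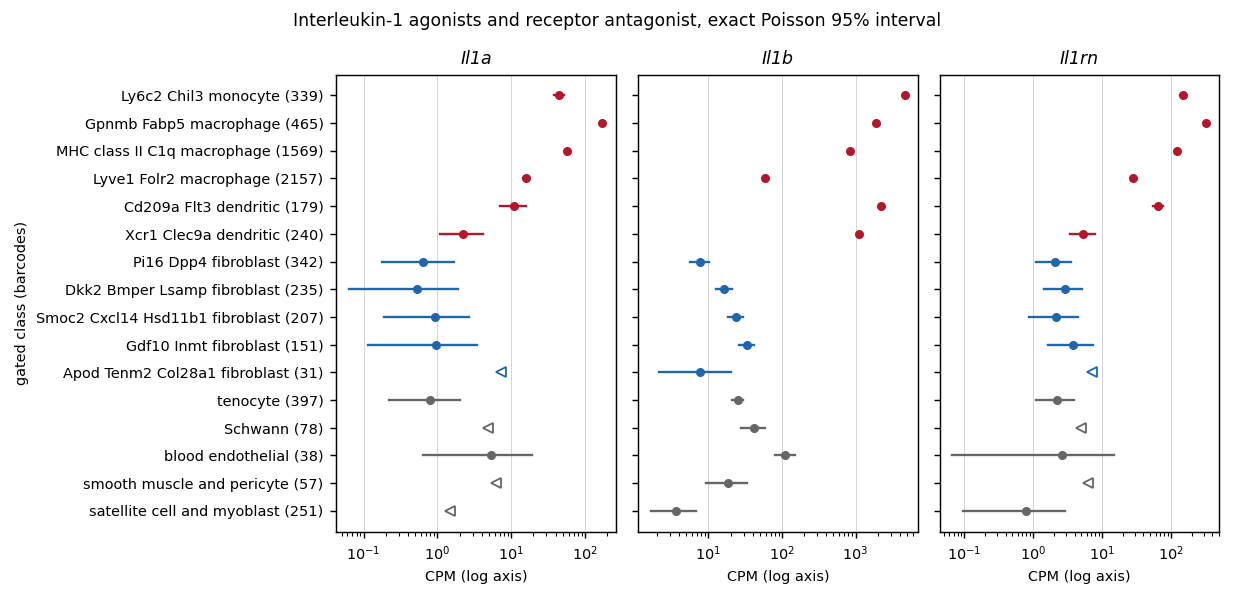
Levels of the agonists Il1a and Il1b and of the antagonist Il1rn (CPM, log axis) in the 16 classes, with myeloid-like classes in red, fibroblast-like in blue and others in grey. Dots are CPM over the summed UMIs, bars the exact Poisson 95% interval, and open triangles the upper bound of classes with 0 UMIs. Ly6c2+ monocyte-like cells lead Il1b at 4627 CPM, whereas Gpnmb+ macrophage-like cells lead Il1a at 168 CPM and Il1rn at 319.9 CPM.

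Il1r1, the signalling receptor, was a fibroblast-like gene. Dkk2+ cells held 742 CPM (715 to 770), Smoc2+ cells 458 CPM (435 to 482), Gdf10+ cells 387 CPM (361 to 415), Pi16+ cells 329 CPM (315 to 343) and Apod+ cells 137 CPM (106 to 173). The first 4 differed from each other beyond counting error. Blood endothelial-like cells (183 CPM, 142 to 231), smooth muscle or pericyte-like cells (150.0 CPM, 120 to 185) and Apod+ cells could not be ordered, and satellite cell or myoblast-like cells came next with 63.0 CPM (53.5 to 73.6). Tenocyte-like cells, which carry the fibroblast marker genes at 53322 CPM, as much as fibroblast-like cells (51420 CPM), held only 28.6 CPM (24.1 to 33.6) of Il1r1. Schwann-like cells held 3 UMIs in 78 cells (3.98 CPM, 0.821 to 11.6) and muscle fibre-like cells none in 25.

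At least 1 Il1r1 UMI was present in 83.0% of thinned Dkk2+ cells, 72.0% of Smoc2+, 59.6% of Gdf10+, 58.2% of Pi16+ and 38.7% of Apod+ cells (98.3%, 88.9%, 79.5%, 83.9% and 58.1% unthinned), compared with 0.833% of Xcr1+ dendritic-like cells (2.08% unthinned). Median depths were 16301 UMIs in Dkk2+ and 17648 in Xcr1+ cells. Myeloid-like cells other than the Xcr1+ subset were not free of the receptor. MHCII+ macrophage-like cells held 47.7 CPM (44.4 to 51.1), Ly6c2+ monocyte-like cells 41.1 CPM, Cd209a+ dendritic-like cells 24.0 CPM, Gpnmb+ macrophage-like cells 20.5 CPM and Lyve1+ macrophage-like cells 14.2 CPM. The UMIs of fibroblast markers in these subsets would bring 2.78, 2.94, 2.53, 2.79 and 2.09 CPM of Il1r1 at the ratio of fibroblast-like cells, against 1.82 CPM in Xcr1+ cells, which held 1.34 CPM (0.491 to 2.91).

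Il1r2, the decoy, marked Cd209a+ dendritic-like cells, with 221 CPM (203 to 241) and a UMI in 41.9% of thinned cells (57.5% unthinned). The next classes, Dkk2+ fibroblast-like (59.4 CPM, 51.9 to 67.6), Xcr1+ dendritic-like (52.9 CPM, 46.4 to 60.1) and Pi16+ fibroblast-like cells (52.7 CPM, 47.2 to 58.8), could not be ordered among themselves. Ly6c2+ monocyte-like cells held 42.2 CPM, MHCII+ macrophage-like cells 18.6 CPM, Gpnmb+ macrophage-like cells 7.23 CPM and Lyve1+ macrophage-like cells 3.56 CPM. The 7 neutrophil-like cells held 28 UMIs, or 339.8 CPM (226 to 491). Il1r2 is a known product of neutrophils. As a part of the UMIs of both receptors, the decoy made up 97.5% in Xcr1+ and 90.2% in Cd209a+ dendritic-like cells, 50.7% in Ly6c2+ monocyte-like cells, 28.0% in MHCII+ and 20.1% in Lyve1+ macrophage-like cells, and 5.36 to 13.8% in the 5 fibroblast-like subsets. These shares count UMIs and are not corrected for transcript length.

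Il1rap, the shared co-receptor, was highest in Schwann-like cells. The 78 cells held 202 UMIs, or 268 CPM (232 to 308), and 52.6% of them (40.9 to 64.0%) had a UMI after thinning (64.1% unthinned). The top 4 cells carried 30.7% of the UMIs and the median cell held 140.3 CPM, so the level did not rest on a few cells. Xcr1+ dendritic-like cells came next with 68.3 CPM (60.9 to 76.4), a log2 difference of 1.97 (1.71 to 2.23), and 35 of their 306 UMIs were in 1 cell. Below them, Pi16+ (62.9 CPM), Dkk2+ (53.4 CPM) and Gdf10+ (43.8 CPM) fibroblast-like, Cd209a+ dendritic-like (51.7 CPM) and Lyve1+ macrophage-like cells (38.3 CPM) formed a gradual series in which no neighbours differed beyond counting error. Gpnmb+ macrophage-like cells held 13.0 CPM and blood endothelial-like cells 10.6 CPM, where 5.26% of thinned cells had a UMI (10.5% unthinned). In the same Schwann-like cells Il1r1 was at 3.98 CPM, Il1rl1 at 0 UMIs, which allows up to 3.98 CPM at 3 counts, and Il1rapl1, a relative of Il1rap known from synapses, at 203 CPM (172 to 238). The UMIs in the 7 neutrophil-like cells gave 243 CPM (148 to 375).

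Il1rl1, which encodes ST2, was highest among the ranked classes in Cd209a+ dendritic-like cells and thinly spread over MHCII+ and Lyve1+ macrophage-like cells. Cd209a+ dendritic-like cells held 39.3 CPM (31.8 to 48.1), MHCII+ macrophage-like cells 25.5 CPM (23.1 to 28.0) and Lyve1+ macrophage-like cells 19.1 CPM (17.5 to 20.8), while Gpnmb+ macrophage-like cells held 6 UMIs in 465 cells (0.689 CPM) and Ly6c2+ monocyte-like cells 3 UMIs in 339 (0.816 CPM). Thinned shares were 13.4%, 12.1%, 8.44%, 0.430% and 0.590% (27.9%, 20.5%, 19.0%, 1.08% and 0.590% unthinned). In Lyve1+ macrophage-like cells 409 cells shared 515 UMIs and no cell held more than 4. The single mast-like cell, outside the ranked classes, held 15 UMIs, or 2245 CPM (1256 to 3703). Fibroblast-like cells held 103 UMIs (4.63 CPM), of which 50 were in 4 cells with at least 10 UMIs each, 1 of them Pi16+ and the other 3 in no subset. None of the 4 had a UMI of Gata3, Cpa3 or Ms4a2, genes of type 2 lymphoid and mast cells.

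**Figure D3:**
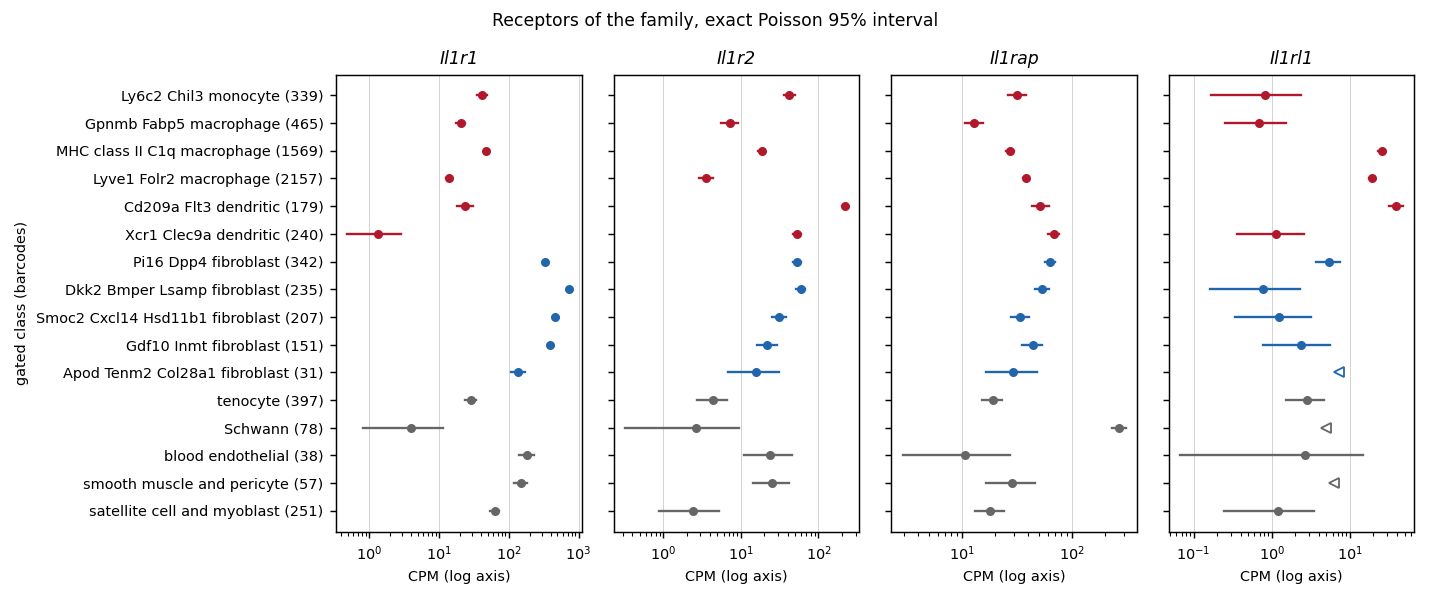
Levels of Il1r1, Il1r2, Il1rap and Il1rl1 (CPM, log axis) in the 16 classes, drawn as for the ligands: dots are CPM, bars the exact Poisson 95% interval, open triangles upper bounds for 0 UMIs, with myeloid-like classes in red, fibroblast-like in blue and others in grey. Il1r1 is highest in Dkk2+ fibroblast-like cells (742 CPM), Il1r2 and Il1rl1 in Cd209a+ dendritic-like cells (221 and 39.3 CPM) and Il1rap in Schwann-like cells (268 CPM).

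Il33 ran through the fibroblast-like subsets in an order of its own. Apod+ cells held 275 CPM (232 to 324), Gdf10+ cells 231 CPM (211 to 253), Smoc2+ cells 199 CPM (184 to 215), Pi16+ cells 128 CPM (119 to 137) and Dkk2+ cells 60.2 CPM (52.7 to 68.5). The first pair did not differ beyond counting error and each later step did. In Apod+ cells, however, 56 of the 141 UMIs were in 1 of the 31 cells, and their median cell held 109 CPM, below that of Gdf10+ (137 CPM) and Smoc2+ cells (126 CPM), so the place of Apod+ cells is uncertain. Tenocyte-like cells followed with 36.6 CPM (31.4 to 42.3). Dkk2+ cells, the highest in Il1r1, were the lowest of the 5 in Il33. A UMI was found in 34.6% of thinned fibroblast-like cells (54.2% unthinned) and in 0.480% of myeloid-like cells (0.960% unthinned), with median depths of 15276 and 11452 UMIs.

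In macrophage-like and monocyte-like subsets Il33 lay between 0.272 and 0.950 CPM, where fibroblast marker UMIs would bring 0.620 to 0.875 CPM, and Cd209a+ dendritic-like cells held none, which allows up to 1.24 CPM at 3 counts. Xcr1+ dendritic-like cells stood a little higher, with 18 UMIs in 240 cells (4.02 CPM, 2.38 to 6.35) against 0.540 CPM from fibroblast markers. Of the 38 blood endothelial-like cells, 2 had a UMI after thinning (5.26%).

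Il18 was concentrated in Pi16+ fibroblast-like cells at 96.9 CPM (89.3 to 105), with a UMI in 37.7% of thinned cells (70.2% unthinned) and 23.8% of the UMIs in the top 5% of cells. Dkk2+ cells held 25.5 CPM (20.7 to 31.1), Gdf10+ 8.10 CPM (4.72 to 13.0), Apod+ 3.90 CPM from 2 UMIs and Smoc2+ 3.70 CPM (1.91 to 6.46). Myeloid-like subsets differed less. Xcr1+ dendritic-like cells held 47.5 CPM (41.4 to 54.4), Ly6c2+ monocyte-like cells 32.9 CPM, Lyve1+ macrophage-like cells 28.5 CPM and MHCII+ macrophage-like cells 25.7 CPM, where no step among the last 3 exceeded counting error, and Cd209a+ dendritic-like (13.7 CPM) and Gpnmb+ macrophage-like cells (10.6 CPM) held less. Tenocyte-like cells held 9 UMIs in 397 cells (1.80 CPM, thinned share 1.26%, unthinned 2.02%). Xcr1+ dendritic-like cells held at most 5.36 CPM of each of Il1a, Il1rn, Il1r1 and Il1rl1.

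**Figure D4:**
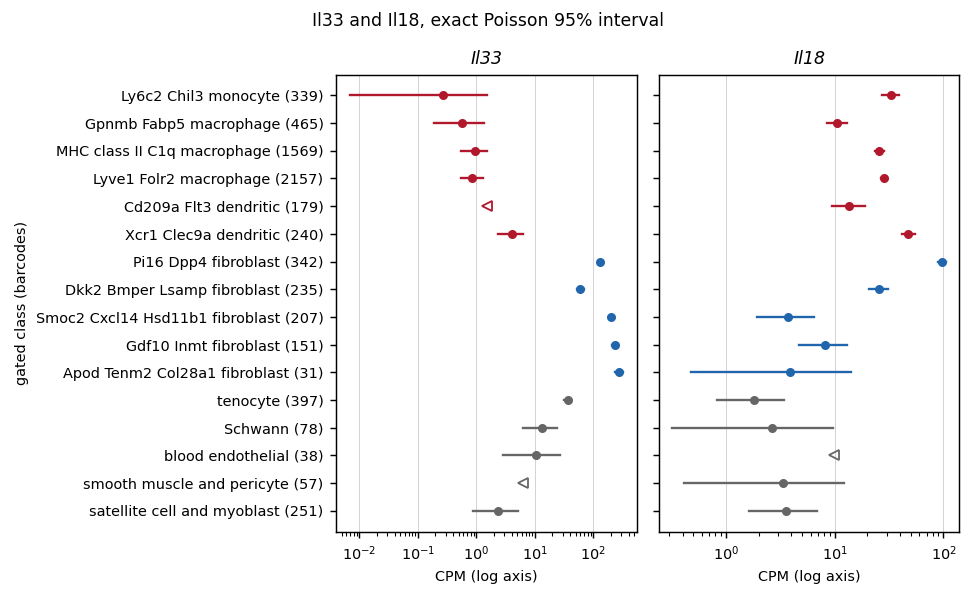
Levels of Il33 and Il18 (CPM, log axis) in the 16 classes, with dots, bars, triangles and colours as for the other level plots (exact Poisson 95% interval). Il33 is found in all 5 fibroblast-like subsets between 60.2 and 275 CPM, whereas Il18 is highest in Pi16+ fibroblast-like cells (96.9 CPM) and lies between 3.70 and 25.5 CPM in the other 4.

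Set pairwise, a member was counted as past 4-fold when the ratio of its CPM values was at least 4 either way and the exact conditional 95% interval of the log2 ratio left out 0. No ratio was formed where both classes held 3 or fewer UMIs. Between pooled myeloid-like and pooled fibroblast-like cells, Il1a (50.7 against 0.764 CPM, log2 ratio 6.05, interval 5.37 to 6.83), Il1rn (105 against 2.43 CPM, 5.43, 5.05 to 5.85) and Il1b (1009 against 27.3 CPM, 5.21, 5.09 to 5.32) were higher in myeloid-like cells. Il33 (1.03 against 139 CPM, -7.08, -7.42 to -6.76) and Il1r1 (26.6 against 469 CPM, -4.14, -4.21 to -4.07) were higher in fibroblast-like cells. Thus 3 of 9 members were past 4-fold on the myeloid side, where 11.1% of 14063 genes were, and 2 on the fibroblast side, where 14.7% were. Because the members were chosen with earlier results of these data known, such counts only describe them. The median log2 ratio was -0.47 over the members and -0.06 over all genes. Il1rl1 (17.5 against 4.63 CPM, log2 ratio 1.92) stayed just under the limit and passed it at 2.08 with a stricter gate and at 2.50 as a mean over cells. Il1r2, Il1rap and Il18 had log2 ratios of -0.95, -0.47 and -0.56, and for these the subsets within a lineage lay further apart than the lineages.

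Ly6c2+ monocyte-like cells were compared with Lyve1+ macrophage-like cells, since Ly6c2 is a marker of monocytes from the blood and Lyve1 of macrophages resident in tissue. Il1b (log2 ratio 6.28, 6.21 to 6.36, or 77.8-fold), Il1r2 (3.57, 3.19 to 3.95) and Il1rn (2.40, 2.24 to 2.56) were past 4-fold on the monocyte-like side, where 2.78% of 10533 genes were, and Il1rl1 (-4.55, -6.83 to -2.99) on the macrophage-like side, where 11.8% were, and 8 of the 9 members belonged to those genes. Il1a (1.46) and Il1r1 (1.54) were higher in monocyte-like cells by less than 4-fold. Il1rap (-0.28) and Il18 (0.21) were close in both, and Il33, with 1 and 23 UMIs, was too rare to be placed.

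The 16 mature dendritic-like cells were set beside Cd209a+ dendritic-like cells. No member was past 4-fold on the mature side (background 2.36% of 3474 genes), and Il1r2 was on the other (background 6.22%), although only 4 of the 9 members had enough UMIs to belong to that background. Il1r2 was at 29.6 against 221 CPM (log2 ratio -2.90, -4.35 to -1.77). Il1b was at 795 against 2194 CPM (-1.47, -1.70 to -1.24). Il1rl1, with 2 UMIs in the mature cells, was at a log2 ratio of -1.99 and passed the limit under 5 of the alternative settings. Between the 7 neutrophil-like and the monocyte-like cells, Il1r2 (log2 ratio 3.01, 2.37 to 3.60) and Il1rap (2.94, 2.18 to 3.64) were past 4-fold on the neutrophil-like side (background 1.92% of 4468 genes) and none on the other (background 2.95%), in a background that held 7 of the 9 members. Il1rl1, with 2 UMIs in the neutrophil-like and 3 in the monocyte-like cells, was given no ratio. Il1b was lower in the neutrophil-like cells by 1.49 on the log2 scale in a ratio of 1650.2 to 4627 CPM, and no Il1a UMI was found there, which allows up to 36.4 CPM at 3 counts, with an interval of the log2 ratio to monocyte-like cells (44.1 CPM) that reaches 0.04. With 16 and 7 cells from 1 library, cell-to-cell variation is not in these intervals.

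Between Pi16+ and Smoc2+ fibroblast-like cells, Il18 was past 4-fold on the Pi16+ side (log2 ratio 4.71, 3.90 to 5.67, or 26.2-fold), where 2.48% of 8210 genes were. None was on the Smoc2+ side (background 2.38%). Il1rl1 was also past 4-fold on the Pi16+ side (2.11, 0.62 to 4.07), but with fewer than 100 UMIs in both subsets together it is not among those genes, which held 6 of the 9 members. The Il1rl1 value rests on 33 UMIs, 11 of them in 1 cell, against 4, and fell below the limit with only cells of 10000 UMIs or more (1.85), without high doublet scores (1.91) and with a looser gate (1.94). Il1rap (0.89), Il1r2 (0.76), Il33 (-0.64) and Il1r1 (-0.48) differed by less than 4-fold. Il1b was at -1.65, which turned into more than 4-fold lower in Pi16+ cells with the stricter (-2.09) and the looser (-2.11) gate, and Il1rn moved from -0.04 to -2.14 with the looser gate.

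**Figure D5:**
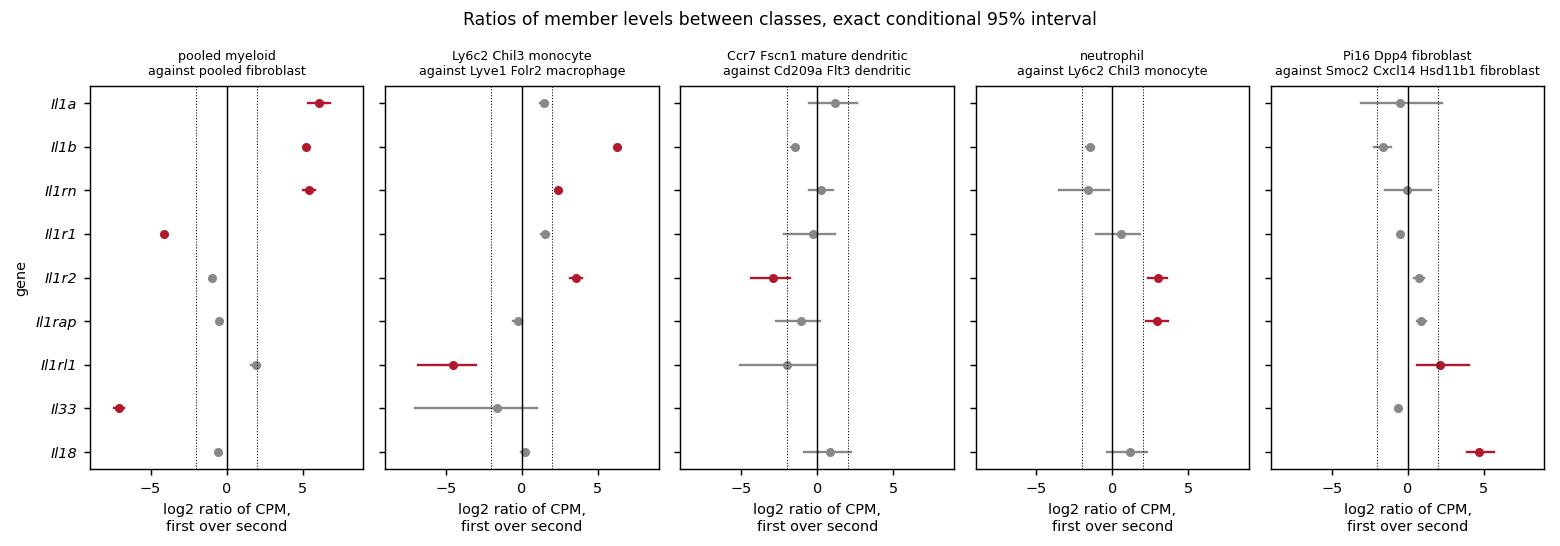
Log2 ratio of CPM, first over second class, for the 9 members in the 5 comparisons named above each panel. Dots are ratios, bars the exact conditional 95% interval, dotted lines mark 4-fold, red marks members past 4-fold, and pairs with 0 or too few UMIs for a ratio are left blank. In the first panel 3 members lie to the right of the 4-fold line and 2 to the left.

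The other genes of the pathway were read in 6 lists with 38 genes, of which 33 had at least 100 UMIs in the 2 lineages and so belonged to the background. Between pooled myeloid-like and fibroblast-like cells, 10 were past 4-fold on the myeloid side, 4 on the fibroblast side and 24 on neither, beside the 11.1% and 14.7% of all genes given above. Their median log2 ratio was 0.93. Of the 5 other ligands, the IL-36 group with Il1f10, 4 had 3 or fewer UMIs in the 2 lineages, and Il1f9 (IL-36γ) had 25 and 2.

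Of the 8 genes for processing and release, 5 were higher in myeloid-like cells and none in fibroblast-like cells. They were the sensors Nlrp3 (375 against 14.6 CPM, log2 ratio 4.68), Nlrp1b (32.0 against 1.48 CPM, 4.43) and Aim2 (63.7 against 5.57 CPM, 3.52), caspase-1 (Casp1, 42.2 against 7.19 CPM, 2.55), which cleaves pro-IL-1β and pro-IL-18, and the adaptor Pycard (194 against 43.5 CPM, 2.16). Casp4, Casp8 and the pore-forming Gsdmd stayed within 4-fold. Nlrp3 was highest in MHCII+ macrophage-like cells (577 CPM) and at 415 CPM in Ly6c2+ monocyte-like cells, and was present in Lyve1+ macrophage-like cells (279 CPM), which had little Il1b.

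Of 6 other receptors and binding proteins, Il18rap, a chain of the IL-18 receptor (5.40 against 0.180 CPM, log2 ratio 4.91), and Sigirr, an inhibitory receptor (2.34 against 0.270 CPM, 3.12), were higher in myeloid-like cells. Il18rap was highest in Cd209a+ dendritic-like cells (33.1 CPM, 26.2 to 41.2). Il1rl2, the IL-36 receptor, was higher in fibroblast-like cells (4.78 against 89.4 CPM, -4.23), with 123 CPM in Pi16+ cells, although its ligands were scarcely seen. Il18r1, Il18bp and Il1rapl1 were within 4-fold between the lineages.

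In the signalling list 1 of 8 genes was past the limit, the kinase Irak2 (139 against 11.7 CPM, log2 ratio 3.57), with 329.9 CPM in Ly6c2+ monocyte-like cells. Myd88, the adaptor of the receptor, was at 41.3 and 38.2 CPM in the 2 lineages (0.11). Traf6 (1.44), Irak4 (1.22), Tab2 (0.79), Tab1 (0.25), Map3k7 (0.04) and Irak1 (-0.22) were also within 4-fold. The list of 5 brakes split. Tnfaip3, an enzyme that edits ubiquitin in the NF-κB pathway, was higher in myeloid-like cells (314 against 51.6 CPM, 2.60), and Irak3, a kinase relative that dampens signalling, in fibroblast-like cells (30.7 against 232 CPM, -2.92), where Pi16+ cells held 457 CPM (440 to 474). Nfkbia, Tollip and Zc3h12a were within 4-fold.

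Of 6 genes known to respond to IL-1, Ccl2, a chemokine for monocytes, was higher in myeloid-like cells (2611 against 411 CPM, log2 ratio 2.67), and Il6 (34.0 against 511 CPM, -3.91) and Lcn2 (2.66 against 29.8 CPM, -3.49) in fibroblast-like cells. Il6 was highest in Gdf10+ cells (848 CPM, 809 to 888). Ptgs2, the inducible cyclooxygenase (193 against 730.0 CPM, -1.92), Cxcl1 (473 against 959 CPM, -1.02) and Nfkbiz (0.90) were within 4-fold. These genes are known to answer to many other signals too.

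Over the 16 ranked classes, the genes whose log2(CPM + 1) ran most like a member's were named among 10799 genes that were neither members nor gate markers. For Il1b these were Fxyd5, Bcl2a1d and Rab11fip1 (Pearson's r 0.95 each), for Il1a Fcgr4 (0.96), Ccl6 (0.95) and Clec4e (0.94), and for Il1rn Ccl6 (0.96), Tlr1 (0.96) and Fcgr4 (0.95). Il1a and Il1rn had r = 0.97 with each other and 0.82 and 0.84 with Il1b. For Il33 they were Hhipl1 (0.96), Lbp (0.96) and Sned1 (0.95). For Il1r1 they were Ace (0.88), Ly6a (0.87) and Fzd4 (0.86), for Il18 Btaf1 (0.89), Rassf5 (0.84) and Hpse (0.83), and for Il1rl1 Ahcyl2 (0.87), Asgr2 (0.85) and Hkdc1 (0.84). For Il1r2 they were Wnt11 (0.85), D16Ertd472e (0.82) and Nr4a3 (0.81), and for Il1rap Emsy (0.84), Pde7a (0.82) and Poc1a (0.80). The 16 points come from 1 library and share lineages, so these values describe likeness over classes. Il1r1 and Il33, both of fibroblast-like cells, had r = 0.56.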

How the data were processed

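The deposited values are raw UMI counts, not normalized, from the GFP+ library, for which the authors ran Cell Ranger (8.0.1 in the file header, 7.1.0 in the submitters' processing notes, which also name Seurat 4.30). The build is given as mm10 in the labels, while the study's methods name both GRCm38 and GRCm39, so positions come from RefSeq GRCm38.p6 and not from the matrix. Of the GFP- library only barcode and feature lists were used. The study's removal of ambient RNA (Decontx) and doublets (DoubletFinder) was not repeated. Expected carryover, leading classes per setting and changed calls were computed after the values were seen.

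Kept barcodes held at least 5000 UMIs, over 200 genes and less than 10% mitochondrial counts. A marker list was scored in each barcode as the mean log2(1 + UMIs per 10000), divided by its mean in the 50 highest barcodes. A lineage needed a score of 0.4, a lead of 0.2 over the next list and 3 detected markers. A subset needed 0.4 and a lead of 0.1. These limits were set with the scores in view. No barcode met the B cell or the epithelial list. In pooled myeloid-like cells 23 lay within 0.05 of the score limit. Barcodes that reached the score without this lead over the next lineage were left out as likely doublets. Removal of the 14.56% highest Scrublet scores (scanpy 1.11.5) was an alternative. The 9 members and all lists were chosen with earlier results of these data known.

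CPM values carry exact Poisson, ratios exact conditional and shares Clopper-Pearson 95% intervals. A gene entered the background with 100 UMIs in both classes together, and a count of 0 was replaced by 3 counts for a bound. Members were named in every class, pathway genes when past 4-fold, and the 3 most alike genes by Pearson's r over classes with 30 barcodes among genes with 500 UMIs. Most other genes of the lists are also named. The gates and ratios were also run on simulated counts, drawn from the mean profiles of the gated classes. These held counting error but no doublets and no other variation between cells. They therefore could not check the gates or intervals against real cells. Alternatives were depth minima of 10000 and 3000 UMIs, stricter and looser gates, under 5% mitochondrial counts, means over barcodes, another denominator, no filter on gene UMIs, and thinning to 2000 UMIs or none. Python 3.11.15, numpy 2.4.6, scipy 1.17.1 and pandas 2.3.3 were used.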

Additional observations from a re-analysis of the deposited data

How the results depend on the processing

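The class with the highest level of each of the 9 genes was the same under 8 of 8 settings that changed levels, and no ratio past 4-fold changed its direction. Of 334 recomputed ratios, 60 lay outside the interval given in the report, as did 24 of 72 levels and 15 of 18 shares of cells with a UMI. Of 45 recomputed counts of members past 4-fold, 38 stayed within 1.5 times the value in the report. For mature dendritic-like against Cd209a+ dendritic-like cells the count was 2 in place of 1 with at least 10000 UMIs, with at least 3000 UMIs, without high Scrublet scores, with under 5% mitochondrial counts, and with mitochondrial, ribosomal protein and haemoglobin genes out of the denominator. The added gene was Il1rl1 each time. For Pi16+ against Smoc2+ fibroblast-like cells the count was 1 in place of 2 with at least 10000 UMIs and without high Scrublet scores, where Il1rl1 was lost. In the neutrophil-like comparison Il1rn passed the limit, at a log2 ratio of -2.13, with at least 10000 UMIs. The cause of these moves was not tested. With 1 library no replicate could be left out, and no paired analysis was possible because no groups were compared. Depth limits Il1rl1, Il33 in myeloid-like cells, and all values of the mature dendritic-like and neutrophil-like cells.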

Other observations

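Values outside the ranked classes were as follows. The 668 myeloid-like cells between subsets held 881 CPM of Il1b (861 to 901) and 108 CPM of Il1rn, and the 402 in no subset held 2139 CPM of Il1b (2098 to 2181) and 154 CPM of Il1rn. The 343 fibroblast-like cells in no subset held 72.0 CPM of Il1b, the highest of the fibroblast-like groups, together with 1038 CPM of myeloid markers, against 181 to 762 CPM in the 5 subsets. The 290 cells without a clear lead of 1 lineage held 433 CPM of Il1b, 112 CPM of Il1r1 and 38.7 CPM of Il33. The 23 erythroid-like cells held 24 Il1b UMIs, 20 of them in 1 cell. Among the 14 T and NK-like cells Il1rap had 6 UMIs and Il1rl1 and Il18 none.

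The Gfp transgene, on which the cells were sorted, was at 1094 CPM in Ly6c2+ monocyte-like, 892 CPM in Gpnmb+ macrophage-like, 665 CPM in Schwann-like and 13.2 CPM in blood endothelial-like cells. Its Pearson's r with Il1b over the 16 classes was 0.62, with Il1rn 0.62 and with Il1r1 -0.53, as a description of 16 classes of 1 sorted library.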
